A study of Homo sapiens with 12 samples.

Results

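The mRNAs described here encode the YTH domain and IGF2BP readers, proteins that recognise methylated adenosines in RNA. The set comprises 8 genes chosen by name (YTHDF1, YTHDF2, YTHDF3, YTHDC1, YTHDC2, IGF2BP1, IGF2BP2 and IGF2BP3), of which 7 were among the 10226 genes with a peak of N1-methyladenosine (m1A) in any list. IGF2BP1 had no peak in any list. The cells were SNU-668, a gastric cancer line with acquired resistance to erastin, an inhibitor of cystine import that causes ferroptosis. Both groups are these resistant cells. One received shRNA against ALKBH3, a demethylase of m1A in RNA, and the other received a control shRNA (shRNA-NC, labelled WT). Each group has 3 immunoprecipitated (IP) libraries with 1 peak list each and 3 input libraries, which the authors used in calling peaks but which have no list of their own. Whether the replicates were separate cultures is not stated in the labels. The spread between them, on which every p-value rests, may therefore be technical.

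As background, YTH proteins hold a methylated adenine in an aromatic pocket of the YTH domain. They are best known as readers of N6-methyladenosine (m6A), and YTHDF1, YTHDF2, YTHDF3 and YTHDC1 have also been found to bind m1A-containing RNA. YTHDF proteins act on mRNA in the cytoplasm, where YTHDF2 speeds decay and YTHDF1 is linked to translation. YTHDC1 is nuclear and takes part in splicing and export, and YTHDC2 is an RNA helicase studied mainly in germ cells. IGF2BP proteins bind mRNA through KH domains and are linked to mRNA stability. The peaks below lie on the mRNAs of these readers. They do not show where the reader proteins bind.

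The 6 lists held from 4894 to 34691 distinct peaks, and read depth is unknown. In order of replicate number the lengths were 34691, 13056 and 8474 for knockdown, then 5015, 4894 and 15130 for control. ALKBH3 had a peak in 1 knockdown list and no control list, which does not measure its mRNA. Of 6 markers of the labelled epithelial cell type, 5 had a peak. KRT8 and KRT18 had one in all 6 lists, KRT19 in 5, EPCAM in 3, VIL1 in 2 knockdown lists alone and CDH1 in none. Of 3 fibroblast markers, COL1A1 and COL1A2 had peaks in 5 and 6 lists and DCN in none. The leukocyte markers PTPRC and CD3E and the endothelial markers PECAM1 and CDH5 had none. A peak needs both a transcript and its enrichment, so a missing peak, less of the mark and less of the transcript cannot be told apart in these lists.

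The 7 readers carried 81 distinct peaks over the 6 lists, 56 in the knockdown lists, compared with 25 in the control lists. Replicates 1, 2 and 3 held 31, 16 and 9 reader peaks in the knockdown lists, compared with 7, 6 and 12 in the control lists. Set against list length, these were 0.894, 1.23 and 1.06 peaks per 1000 peaks of the list in the knockdown lists, compared with 1.40, 1.23 and 0.793 in the control lists, so the groups overlapped. Of the 8 genes, 6, 6 and 3 had a peak in the knockdown lists, compared with 4, 5 and 5 in the control lists. No reader had a peak in all 6 lists, a pattern found for 7.55% of all genes with a peak. IGF2BP2 and YTHDF3 had peaks in 5 lists, YTHDF1, YTHDC1, YTHDC2 and IGF2BP3 in 4, and YTHDF2 in 3.

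**Figure D1:**
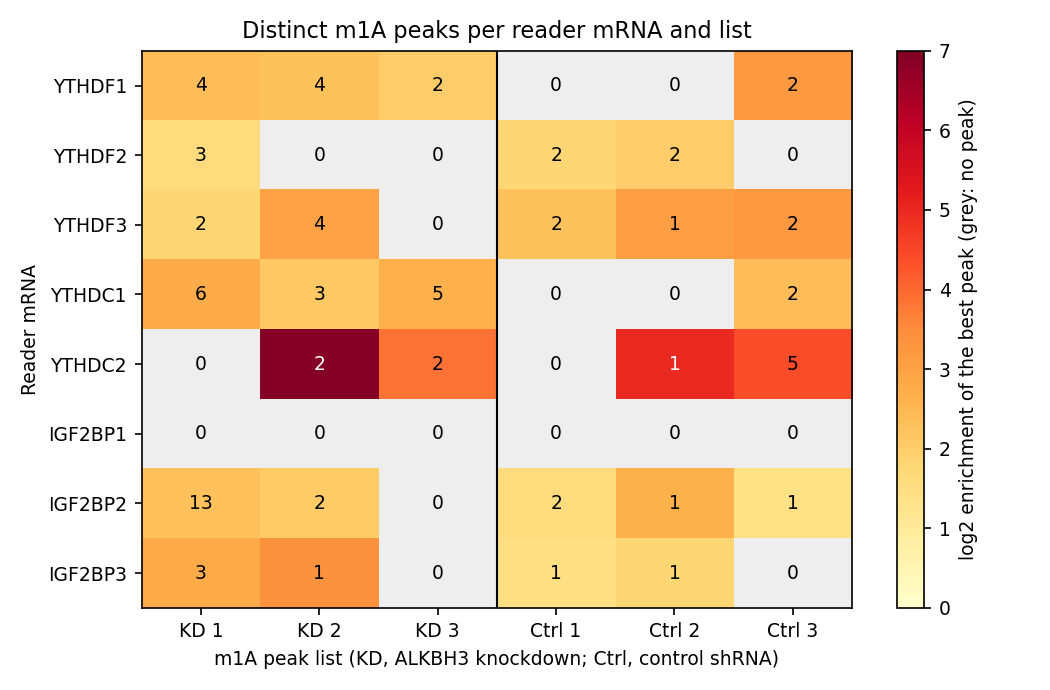
Number of distinct m1A peaks (printed) of each reader mRNA (rows) in each peak list (columns, ALKBH3 knockdown left, control right), coloured by the log2 enrichment of the best peak. YTHDF1 and YTHDC1 have peaks in every knockdown list but only in replicate 3 among the controls, and YTHDC2 has the highest values, up to 6.90.

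YTHDF1 and YTHDC1 were the 2 readers with a peak in at least 2 more knockdown than control lists, a rule met by 20.1% of all 10226 genes. Both were found in every knockdown list and, among the controls, in replicate 3. No reader was found in all 3 lists of one group and in none of the other, against 2.9% of genes for knockdown and 0.0391% for control. No reader had a peak in at least 2 more control lists, against 1.76% of all genes. The 2 of 7 genes are a share near this background, and 649 genes (6.35%) had exactly the same pattern of lists as YTHDF1 and YTHDC1. The median difference in lists, knockdown minus control, was 0 over the 7 readers and 1 over all genes. At equal list length, with the 4894 most enriched peaks of each, neither gene met the rule, and YTHDF2, YTHDF3 and IGF2BP2 had a peak in 2 more control lists, a rule met there by 11.1% of all genes. Without any 1 of the 3 knockdown replicates, when the rule asks for both remaining lists and no control list, no reader met it in the knockdown direction, against 4.43%, 5.59% and 8.67% of all genes without replicates 1, 2 and 3. In the control direction YTHDF2, YTHDF3 and IGF2BP2 met it without knockdown replicate 1 (8.42% of all genes), and the latter pair without knockdown replicate 2 (4.42%).

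YTHDC1, the nuclear reader, had 6, 3 and 5 peaks in knockdown replicates 1, 2 and 3, none in control replicates 1 and 2, and 2 in control replicate 3. Every knockdown list thus held more YTHDC1 peaks than any control list. Per 1000 peaks of the list the values were 0.173, 0.230 and 0.590 in the knockdown lists, compared with 0, 0 and 0.132 in the control lists. The means were 0.331 ± 0.226 and 0.0441 ± 0.0763 (n = 3 per group, SD; exact permutation, two-sided p = 0.1, Benjamini-Hochberg adjusted p = 1 over 10226 genes). The p of 0.1 is the smallest that 3 lists against 3 allow, so no gene could pass the adjustment. YTHDC1 was the only reader whose groups did not overlap by this measure. Over all genes, 4.89% did not overlap with the knockdown lists higher and 2.43% with the control lists higher. The YTHDC1 groups did overlap among peaks with at least 4-fold enrichment (difference 0.322 peaks per 1000, p = 0.3, exact permutation test) and at equal list length, where 4 peaks of knockdown replicate 3 alone were left. Its difference of 0.287 peaks per 1000 was 0.157 without knockdown replicate 3. With 1 list left out, the groups of YTHDF1 did not overlap either without knockdown replicate 1 (9.55% of all genes with knockdown higher) or control replicate 3 (10.2%). With the controls higher, those of YTHDF3 did not overlap without knockdown replicate 2 (3.68% of all genes), nor those of YTHDF2 and IGF2BP3 without control replicate 3 (6.68%).

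Of the 16 YTHDC1 peaks on the minus strand of chromosome 4 (hg19), 10 lay in coding sequence alone, 2 in the 3′ UTR alone and 1 in the 5′ UTR alone. The other 3 spanned regions or differed between transcripts. Their log2 enrichments ran from 1.73 to 2.74. A coding stretch at 69203017 to 69203116 had a peak in knockdown replicates 2 and 3, with log2 enrichments of 1.79 and 1.73, and 75 nt lay in both. A second stretch near the end of the coding sequence, with 25 nt (69179930 to 69179954) in both lists, had a peak in knockdown replicates 1 and 2. Neither stretch had a peak in a control list. The control replicate 3 peaks shared no base with either stretch. They lay at 69179755 to 69179829, across the end of the coding sequence and the 3′ UTR, and between 69197907 and 69198552 over 2 exons. The former is close to the second stretch, whose joined peaks ran from 69179880 to 69182035. Fragments were about 300 nt long, so peaks this near cannot be told apart as separate sites.

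YTHDF1 had 4, 4 and 2 peaks in the knockdown lists, compared with 0, 0 and 2 in the control lists. Per 1000 list peaks these were 0.115, 0.306 and 0.236 against 0, 0 and 0.132. Control replicate 3 lay above knockdown replicate 1, so the groups overlapped. The means were 0.219 ± 0.0966 and 0.0441 ± 0.0763 (n = 3 per group, SD; exact permutation, two-sided p = 0.2, adjusted p = 1). Of its 12 peaks, 8 lay in coding sequence alone, and all of these fell between 61834183 and 61834957 on chromosome 20, minus strand. One coding position, 61834183 to 61834532, had a peak in all 4 lists in which YTHDF1 had any, and 25 nt (61834308 to 61834332) were covered in every one of them. The log2 enrichments there were 2.30, 1.95 and 2.00 in knockdown replicates 1, 2 and 3 and 2.17 in control replicate 3. Of 64 reader positions, this alone had a peak in 4 lists. Over all genes, 1792 of 57839 positions had a peak in at least 4 lists. The highest YTHDF1 enrichment, 3.20, belonged to a peak of control replicate 3 at 61847230 to 61847329, across the 5′ UTR and the start of the coding sequence, which had no peak in another list.

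**Figure D2:**
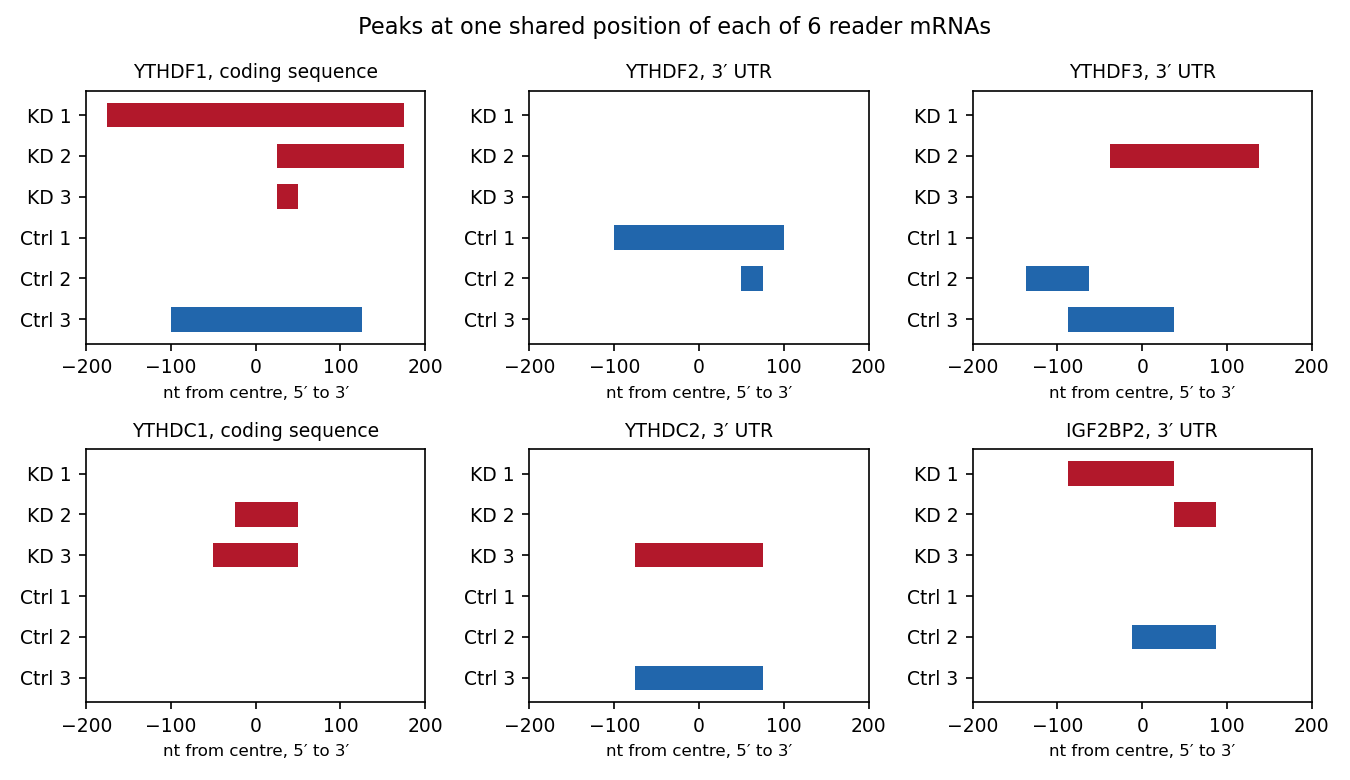
Extent of peaks in each list at one single-exon position of each of the 6 reader mRNAs with a position in at least 2 lists (the one in most lists and, where tied, of the lowest coordinate), in nt from the centre of the joined position, read 5′ to 3′ (red, ALKBH3 knockdown; blue, control). The YTHDF1 coding position has a peak in all 3 knockdown lists and control replicate 3, the YTHDC1 position in 2 knockdown lists and the YTHDF2 position in 2 control lists.

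YTHDF2 and YTHDF3, the close relatives of YTHDF1, did not share its pattern of lists, which only 6.35% of all genes had. YTHDF2 had 3 peaks in knockdown replicate 1, none in knockdown replicates 2 and 3, 2 each in control replicates 1 and 2, and none in control replicate 3. Of the 1330 genes with a peak in control replicates 1 and 2, 83 (6.24%) had none in knockdown replicate 3 or control replicate 3. YTHDF2 was among these, and so missing from control replicate 3, the longest control list. Per 1000 list peaks the means were 0.0288 ± 0.0499 in the knockdown lists, compared with 0.269 ± 0.233 in the control lists (n = 3 per group, SD; exact permutation, two-sided p = 0.4, adjusted p = 1). All 4 control peaks lay in the 3′ UTR on chromosome 1, plus strand, at a pair of positions that both control lists shared. These were 29095829 to 29096028, with log2 enrichments of 1.58 and 1.52 in control replicates 1 and 2, and 29096054 to 29096278, with 1.81 and 2.02. In knockdown replicate 1 the 3 peaks shared no base with these positions. The widest covered 750 nt of coding sequence (29069537 to 29070286, log2 enrichment 1.63), and the one in the 3′ UTR ended at 29095578, before either control position. Fragments were about 300 nt long, so neighbouring 3′ UTR peaks of YTHDF2 may not be separate sites.

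YTHDF3 had 2, 4 and 0 peaks in the knockdown lists, compared with 2, 1 and 2 in the control lists. The means per 1000 list peaks were 0.121 ± 0.163 and 0.245 ± 0.138 (n = 3 per group, SD; exact permutation, two-sided p = 0.4, adjusted p = 1). The groups overlapped. The difference of -0.124 was -0.0469 without control replicate 1, -0.0631 without knockdown replicate 3 and -0.216 without knockdown replicate 2. By raw number of peaks its sign turned, with a mean of 0.333 more peaks in the knockdown lists. All 5 control peaks lay in the 3′ UTR on chromosome 8, plus strand. Between 64123313 and 64123587, control replicates 2 and 3 and knockdown replicate 2 had peaks that overlapped in a chain, with log2 enrichments of 3.07, 3.20 and 2.96, the highest YTHDF3 peak of each of these lists. No base was covered in all 3. The 3 YTHDF3 peaks in coding sequence, between 64099526 and 64099950, belonged to knockdown replicates 1 and 2.

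YTHDC2, the helicase reader, carried the most enriched peaks of the set. Its 10 peaks had log2 enrichments from 3.21 to 6.90 and lay between the 83.9th and the 99.8th percentile of their own list. The median percentile of its peaks was 92.5, against 21.1 for IGF2BP2 and 25.6 for YTHDF2. Those medians pool unlike lists. Of the peaks, 13 of 19 for IGF2BP2 and 3 of 7 for YTHDF2 came from knockdown replicate 1, where YTHDC2 had none. Outside that list IGF2BP2 peaks lay between the 8.34th and the 63.8th percentile and YTHDF2 peaks between the 21.5th and the 62.7th. It had 0, 2 and 2 peaks in the knockdown lists, compared with 0, 1 and 5 in the control lists. Its best peak reached 6.90 in knockdown replicate 2, 3.86 in knockdown replicate 3, 4.98 in control replicate 2 and 4.38 in control replicate 3. The means per 1000 list peaks were 0.130 ± 0.120 in the knockdown lists, compared with 0.178 ± 0.167 in the control lists (n = 3 per group, SD; exact permutation, two-sided p = 0.8, adjusted p = 1), and the sign turned without knockdown replicate 1 or control replicate 3. All 10 peaks stayed when lists were cut to 4894 peaks or to 4-fold enrichment. YTHDC2 was the only one of the 7 readers without a peak in knockdown replicate 1, the longest list. Of the 2451 genes with a peak in knockdown replicates 2 and 3 and control replicate 3, 124 (5.06%) lacked one in knockdown replicate 1.

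Of the YTHDC2 peaks, 7 lay in the 3′ UTR alone and 3 in coding sequence, on chromosome 5, plus strand. The position 112929175 to 112929324 had a peak with the same start and end in knockdown replicate 3 and control replicate 3, with log2 enrichments of 3.86 and 3.63. A second 3′ UTR position, 112930650 to 112930899, had a peak in knockdown replicate 2 and control replicate 2, with 25 nt in common and log2 enrichments of 6.90 and 4.98. Both shared positions thus joined 1 list of each group.

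**Figure D3:**
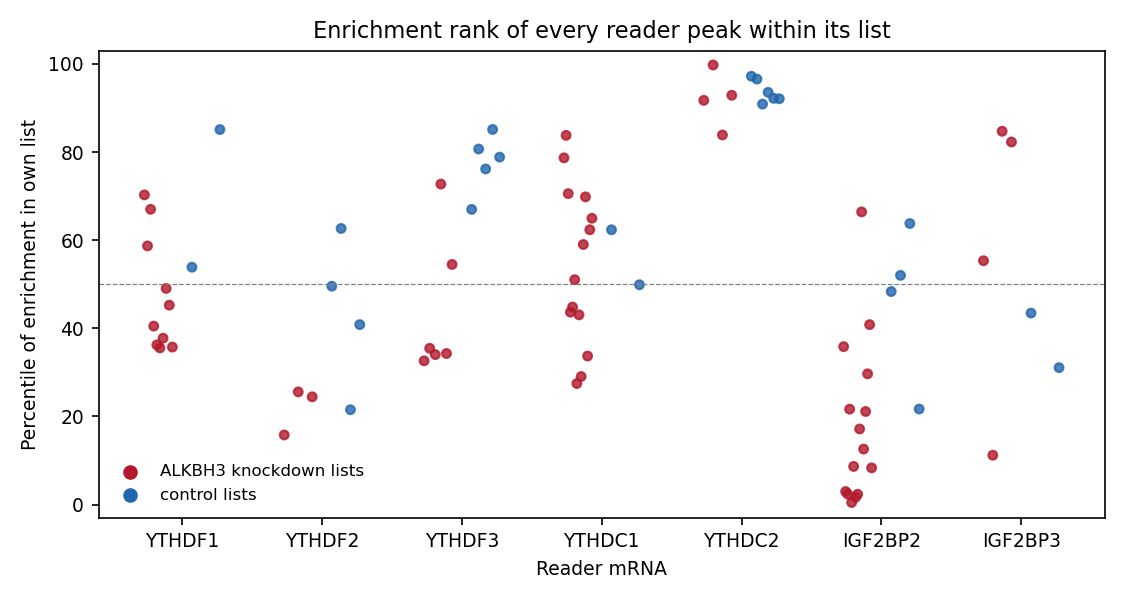
Percentile of log2 enrichment of every reader peak among all distinct peaks of its own list (y axis), by reader mRNA (x axis) and group (red, ALKBH3 knockdown; blue, control); the dashed line is the middle of a list. All YTHDC2 peaks lie above 83, while the median of IGF2BP2 is 21.1, with 13 of its 19 peaks from knockdown replicate 1.

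IGF2BP2 had the most peaks, 19 in all, of which 13 came from knockdown replicate 1. The other 5 lists together held 6 IGF2BP2 peaks, fewer than the 10 each of YTHDC1 and YTHDC2. By list there were 2 and 0 in knockdown replicates 2 and 3, and 2, 1 and 1 in the control lists. Per 1000 list peaks the values were 0.375, 0.153 and 0 in the knockdown lists, compared with 0.399, 0.204 and 0.0661 in the control lists. Both ranges were wide and overlapped (means 0.176 ± 0.188 and 0.223 ± 0.167, n = 3 per group, SD; exact permutation, two-sided p = 0.7, adjusted p = 1). The direction rested on the scale. By raw number of peaks the knockdown lists held 3.67 more on average. The direction also turned without knockdown replicate 3 or control replicate 1. Most peaks of knockdown replicate 1 were weak, down to a log2 enrichment of 0.816, at the 0.487th percentile of that list. Only 3 IGF2BP2 peaks over all lists reached 4-fold enrichment.

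In IGF2BP2 on chromosome 3, minus strand, 2 coding stretches and a 3′ UTR position recurred. Bases 185390344 to 185390368 were covered in knockdown replicate 1 and in control replicates 1 and 3, and 185376130 to 185376179 in knockdown replicate 1 and control replicate 1. In the 3′ UTR, between 185361527 and 185361701, knockdown replicates 1 and 2 and control replicate 2 had peaks in a chain, with log2 enrichments of 1.79, 2.07 and 2.65. No base was covered in all 3, and the knockdown peaks were joined only through the control peak. IGF2BP3 had 3, 1 and 0 peaks in the knockdown lists, compared with 1, 1 and 0 in the control lists. Its means per 1000 list peaks were 0.0544 ± 0.0473 and 0.135 ± 0.117 (n = 3 per group, SD; exact permutation, two-sided p = 0.4, adjusted p = 1), a direction that turned by raw number of peaks (0.667 more in the knockdown lists) and among peaks with at least 4-fold enrichment. None of its 6 peaks overlapped another. The highest, with a log2 enrichment of 3.37 in knockdown replicate 2, lay in the 5′ UTR on chromosome 7, minus strand (23509946 to 23509995). IMP3 is also an alias of IGF2BP3, but the gene named IMP3 in the lists lies on chromosome 15 and was not counted.

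**Figure D4:**
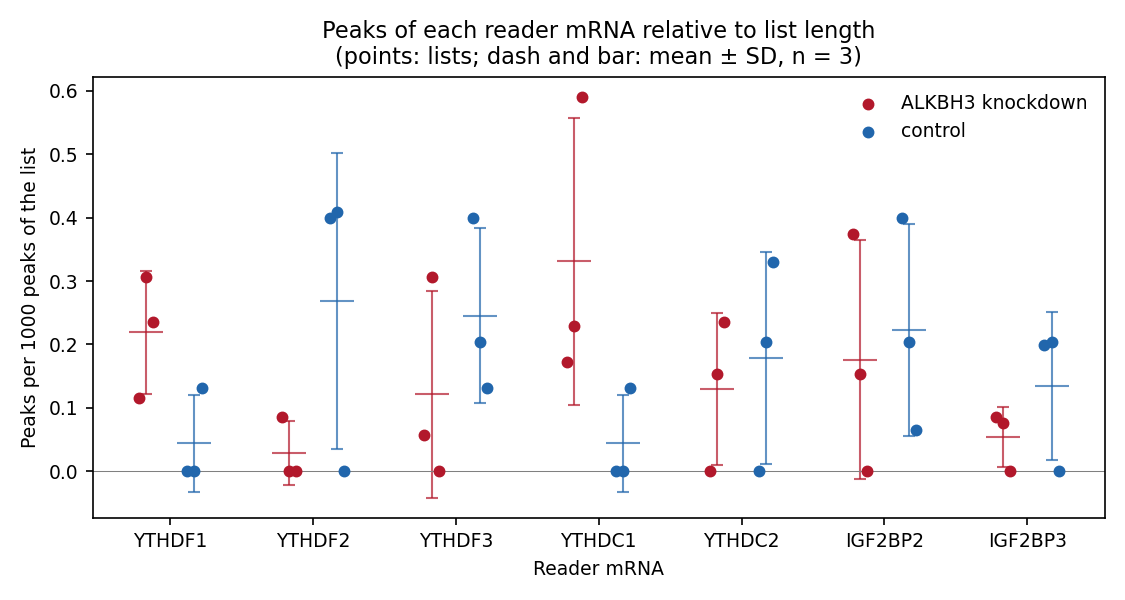
Distinct peaks of each reader mRNA per 1000 distinct peaks of the list (y axis), with a point per list and the mean ± SD of 3 lists per group (red, ALKBH3 knockdown; blue, control). Only for YTHDC1 do all knockdown lists (0.173 to 0.590) lie above all control lists (0 to 0.132).

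Across the set, joining peaks that shared at least 1 base gave 64 positions, of which 12 (18.8%) had a peak in at least 2 lists and 4 in at least 3. Over all genes the shares were 19.2% and 6.92% of 57839 positions, so reader positions recurred at a rate near that of all genes. Of the 12 positions, 7 joined lists of both groups, 3 knockdown lists alone (in YTHDF1 and YTHDC1) and 2 control lists alone (both in YTHDF2). Over all genes the shares of such positions were 71.3%, 24.5% and 4.20% in the same order, against 58.3%, 25% and 16.7% for the readers. The 16.7% rests on neighbouring YTHDF2 positions from the same 2 control lists. Fragments were about 300 nt long, so these positions may be 1 site. With a reciprocal overlap of at least 50%, 6 positions recurred, for which no share over all genes is given.

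By region, 35 of the 81 reader peaks lay in the 3′ UTR alone, 40 in coding sequence alone and 2 in the 5′ UTR alone. By replicate number, reader peaks in the 3′ UTR numbered 10 of 31, 7 of 16 and 1 of 9 after knockdown. In the controls they numbered 5 of 7, 6 of 6 and 6 of 12. The shares were 32.3%, 43.8% and 11.1% in the knockdown lists, compared with 71.4%, 100% and 50% in the control lists, so every control list lay above every knockdown list. The means were 29.0% ± 16.6 and 73.8% ± 25.1 (SD, n = 3 each). Among all peaks the 3′ UTR share was 19.7%, 39.2% and 44.1% in the knockdown lists, compared with 57.5%, 59.6% and 44.3% in the control lists. Every control list thus lay above every knockdown list for all peaks too, though knockdown replicate 3 and control replicate 3 were nearly level. The share of all peaks fell inside the Wilson 95% interval of the reader share, which covers counting error only, in 4 of the 6 lists. The interval takes peaks of the same mRNA as independent, which can make it too narrow. In knockdown replicate 3 the reader share was lower, with 1 of 9 peaks (11.1%, interval 1.99% to 43.5%) against 44.1% of all peaks. These 9 peaks came from 3 genes, 5 of them from YTHDC1. In control replicate 2 the reader share was higher, with 6 of 6 peaks from 5 genes (100%, interval 61.0% to 100%) against 59.6%.

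**Figure D5:**
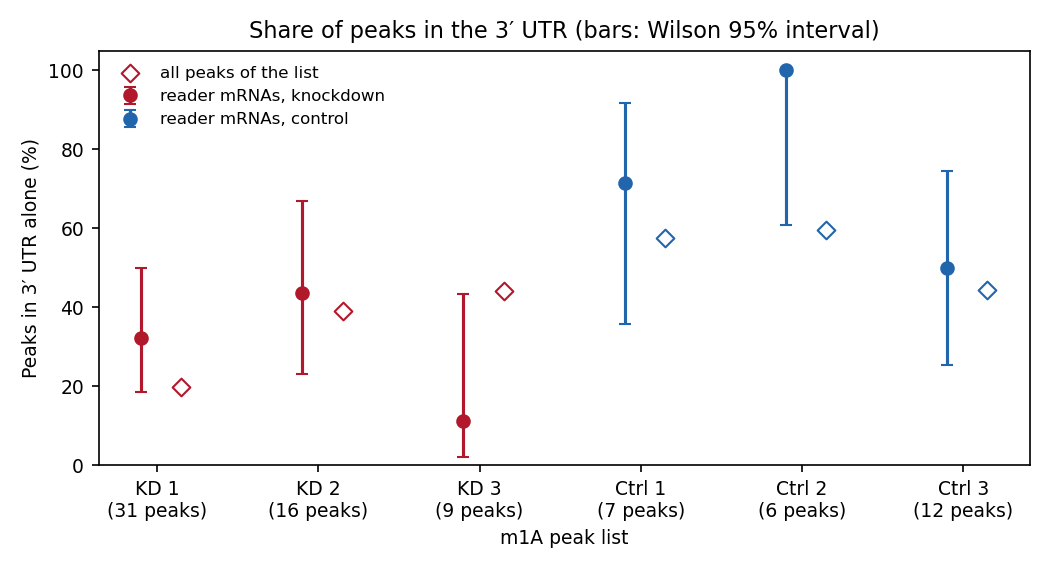
Share of reader peaks that lie in the 3′ UTR alone (filled points, with Wilson 95% intervals) and the same share over all peaks of the list (open diamonds), for each list (red, ALKBH3 knockdown; blue, control). The reader shares run from 11.1% to 43.8% in the knockdown and from 50% to 100% in the control lists. The intervals take peaks of the same mRNA as independent.

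Proteins that work with the readers were examined by the same rule of at least 2 more lists. Of 23 partner genes, 20 had a peak. Among these, 5 met the rule in the knockdown direction and 1 in the control direction, against 20.1% and 1.76% of all genes, so the knockdown share was near the background. CNOT3, a subunit of the CCR4-NOT deadenylase, and SRSF10, a splicing factor that interacts with YTHDC1, had peaks in 3 knockdown lists and 1 control list, as did G3BP2, a stress granule protein. XRN2, a nuclear 5′ to 3′ exonuclease, and EXOSC10, an exosome subunit, had peaks in 2 knockdown lists and no control list. ELAVL1, an mRNA-stabilising protein that partners with IGF2BPs, had a peak in 3 control lists and 1 knockdown list. CNOT1, which YTHDF2 contacts, and SRSF3, a YTHDC1 partner, had a peak in all 6 lists. CNOT7, PABPC1, XRN1 and G3BP1 did too, as did 7.55% of all genes with a peak. POP1, MEIOC and RBM46 had none.

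All 12 other genes described as readers of RNA marks had a peak. The rule was met by 1 of them in each direction, against 20.1% (knockdown) and 1.76% (control) of all genes. FXR1 met it in the knockdown direction and EIF3H, a subunit of translation factor eIF3, in the control direction. FXR1, an RNA-binding relative of FMR1, had 5, 6 and 4 peaks in the knockdown lists, compared with 0, 0 and 1 in the control lists. Its best log2 enrichments were 1.92, 5.13 and 4.26 in the knockdown lists, compared with 2.27 in control replicate 3. Of 9 m1A writers and erasers, 7 had a peak. Only FTO, a demethylase, met the rule in the knockdown direction (2 lists against 0), a rule met by 20.1% of all genes. The median difference in lists, knockdown minus control, was 0.5 for the partners, 0 for the other readers and 1 for the writers and erasers, against 1 over all genes.

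The genes whose numbers of peaks over the 6 lists lay closest to those of the readers found in 5 lists were CORO1C and ZNF106 for IGF2BP2 and CCNDBP1 and CHMP1A for YTHDF3. The Euclidean distances of log2(peaks + 1) were 0.585, 0.834, 0.717 and 0.788. CORO1C had 13, 2 and 0 peaks in the knockdown lists, compared with 2, 1 and 2 in the control lists, which differs from IGF2BP2 in control replicate 3 alone.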

How the data were processed

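The libraries were made, per the labels' protocols, from mRNA fragments of about 300 nt enriched with an anti-m1A antibody, kept strand information and were read over 150 nt. The submitters' processing notes name HISAT2 2.1.0, Trimmomatic 0.32, FastQC 0.11.7 and the build hg19, without their roles. Which program called the peaks is not given in the sources used here. Peak lists were deposited for each IP library separately. The log2 enrichment of a peak comes from the authors, per the file headers. It was taken as IP over input, all values being above 0, and serves here to describe or order peaks of the same list. Each peak's deposited p-value and false discovery rate were used only as a filter. There are no read counts in the lists, so depth is unknown.

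Here, entries were collapsed to distinct peaks by position, strand and gene name, list length counts each position and strand once, overlaps were measured on exon blocks, and positions are counted from 1 in hg19. Reads of YTHDF pseudogenes could have been assigned to these genes, which was not tested. Percentiles are ranks of enrichment within a list. For each gene, peaks per 1000 list peaks were compared between groups with an exact, two-sided permutation test, over all 10226 genes with Benjamini-Hochberg adjustment (Python 3.11.15, numpy 2.4.6, pandas 2.3.3, scipy 1.17.1). Test code was tested on simulated data. No pair of lists held an identical peak with the same enrichment. The members and lists were chosen with earlier results of these data known. Named genes are the 8 readers, ALKBH3, and those partners, other readers, and m1A writers and erasers whose numbers of lists with a peak differed by 2 or more between groups. Cell type markers are given too, except 1 that is not reported here. The rule for genes of like pattern asked for a peak in all 6 lists, which no reader had. Those named for IGF2BP2 and YTHDF3 were therefore chosen after their values were seen. So were the partners named as having a peak in all 6 lists and the listed genes without a peak. No genome of the files' build was used here, so no sequence of a peak is shown.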

Additional observations from a re-analysis of the deposited data

How the results depend on the processing

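Counts for at least 2 more lists were 2 readers in the knockdown and 0 in the control direction. They became 0 and 3 at equal list length, where 12.2% and 11.1% of all genes met the rule, and 3 and 1 with at least 4-fold enrichment (20.9% and 1.67% of all genes; IGF2BP3 added in the knockdown direction, YTHDF3 in the control direction). With all lists of a group and none of the other the knockdown count was 0. Leaving out each list gave 0 to 2 readers in the knockdown and 0 to 3 in the control direction. The shares of all genes ran from 4.43% to 40.2% and from 0.12% to 8.42%. The count of 2 came without a control list, where from 26.9% to 40.2% of all genes met the rule. The number of readers whose groups did not overlap, 1, became 0 at equal list length. There, 2.04% of all genes did not overlap with knockdown and 0.838% with control higher. With a list left out the number of readers ranged from 1 to 4. From 6.79% to 14.0% of all genes then did not overlap with knockdown and from 3.68% to 6.68% with control higher. Among peaks with at least 4-fold enrichment, groups did not overlap for 3.58% (knockdown higher) and 1.30% (control higher) of all genes. The number of readers there was also 1, but YTHDF3, higher in control, in place of YTHDC1. With replicate number as a block it was 3 (YTHDF1, YTHDC1 and IGF2BP2), counted as 3 within-number differences of 1 sign, for which the smallest exact p is 0.25 and which 8.05% (knockdown higher) and 4.31% (control higher) of all genes showed. Same-numbered lists did not deviate together (correlations of deviations over 10226 genes -0.0433, 0.0333 and -0.119), so no pairing by number was seen. These correlations of peak numbers cannot tell whether same-numbered libraries shared a culture or a batch. Of the 12 positions in at least 2 lists, 5 were left with at least 4-fold enrichment, 5 at equal list length and 6 with 50% reciprocal overlap, and 8 to 10 with a list left out. Shares over all genes are not given for these settings, so whether such losses are particular to the readers is unknown.

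Directions turned for 4 readers. The list difference of IGF2BP2 was 1 with at least 4-fold enrichment. The difference in peaks per 1000 ran from -0.138 to 0.0276 for YTHDC2 and from -0.146 to 0.0409 for IGF2BP2 with a list left out. YTHDC2 turned without knockdown replicate 1 (0.0163) or control replicate 3, and IGF2BP2 without knockdown replicate 3 or control replicate 1 (0.0408). The difference of IGF2BP3 was 0.0793 with at least 4-fold enrichment. By raw number the differences were 0.333 for YTHDF3, 3.67 for IGF2BP2 and 0.667 for IGF2BP3, and by share of covered bases (in bases per 1000000) 40.5 for YTHDC2 and 24.6 for IGF2BP2. The cause was not tested. The 3′ UTR shares stayed within 1 SD in every alternative, and older symbols changed no reader value. Nor did the false discovery rate filter, which every peak passed, or merging, since no peaks of a gene overlapped within a list.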
